A study of Mus musculus with 20 samples.

Results

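Arterioles and post-capillary venules of the mouse kidney cortex were compared directly, as the vessels that bring blood to the cortical microvasculature and the vessels that drain it. The comparison rests on 8 of the 20 samples of the series, 4 of arterioles and 4 of post-capillary venules, chosen by their labelled compartment. All 8 came from healthy, untreated wild-type male mice of the strain C57BL6/OlaHsd, with no transgene or agent in either group. Both vessel types were cut by laser microdissection from hematoxylin-stained cryosections, on the basis of their shape alone and with no marker stain. The area cut was smaller for arterioles than for venules, so the amount of tissue and the vessel type cannot be told apart. Per the methods, both vessel types of a mouse came from the same slide, but the labels do not name the mouse behind a sample, so that p-values here describe how far the 8 samples scatter and no more. Each library carries its vessel type and its column number (93, 96, 98 or 100), and values per library follow that order.

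An arteriole is a resistance vessel: its endothelium is wrapped in smooth muscle cells, whose contraction sets blood flow and pressure downstream, and an elastic layer lies between the cell types. A post-capillary venule collects blood from capillaries, has few contractile cells around its endothelium, and is the usual site at which leukocytes leave the blood. In the kidney cortex both lie among densely packed tubules, in which proximal tubule cells rich in mitochondria reabsorb most of the filtrate. Endothelial cells carry an arterial or a venous programme, in which Notch signalling and ephrin B2 mark the arterial side and the transcription factor Nr2f2 and the receptor Ephb4 the venous side.

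Reads were counted per gene with a 3′ mRNA method that places 1 read near the end of each transcript, so that counts need no correction for transcript length. Total counts were 6121550 to 11443164 in arterioles and 4639090 to 9038724 in venules with no difference that passed a two-sided exact permutation test (p 0.743, n = 4 each). Arteriole libraries detected 11838 ± 516 genes and venule libraries 12816 ± 734 (SD, n = 4), a difference that did not pass the test (exact permutation p 0.0857). Of the 8954 genes that passed the filter on low counts, 10.7 to 23.9% had 3 counts or fewer in an arteriole library, against 4.30 to 12.3% in a venule library. The rank correlation of expression between libraries was 0.443 to 0.500 among arterioles, 0.560 to 0.644 among venules and 0.373 to 0.449 between the vessel types. Levels are given as CPM, the count of a gene over the TMM-scaled library total scaled to 1000000 counts, and fold changes as log2 of arterioles over venules with the standard error of the fit. A gene was called at an FDR under 0.05 in edgeR's quasi-likelihood test over all genes tested (Benjamini-Hochberg).

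Of the 8954 genes tested, 201 were higher in arterioles (2.24%) and 57 were higher in venules (0.637%), together 2.88%. The median absolute log2 fold change was 3.92 among the former and 3.62 among the latter. In 196 of the 201 genes all 4 arteriole libraries lay above all 4 venule libraries, an order found in 6.43% of all genes tested. In 56 of the 57 genes all 4 venule libraries lay above all 4 arteriole libraries, as they did in 7.49% of all genes tested. Over all genes the median log2 fold change was 0.35, with DESeq2 size factors 0.62, with plain library totals 0.07, with limma voom and quality weights -0.52 and with the column number as a replicate block -0.47. The first 2 of these settings moved the counts to 232 and 32 with DESeq2 size factors and to 164 and 86 with plain totals, so that arteriole-higher genes made up 87.9% and 65.6% of the calls in place of 77.9%. The balance turned in the DESeq2 Wald test, with 737 and 1047 genes (41.3%), and in the fit of all 20 libraries, with 648 and 782 genes (45.3%), while the replicate block gave 267 and 118. The venule-higher count fell to 14 without venule 93, 14 without venule 96, 24 without venule 98, 13 without venule 100 and 36 without arteriole 98, while the arteriole-higher count fell to 132 without venule 93. In every fit that left out 1 library, 99 of the 201 arteriole-higher and 9 of the 57 venule-higher genes kept their call.

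**Figure D1:**
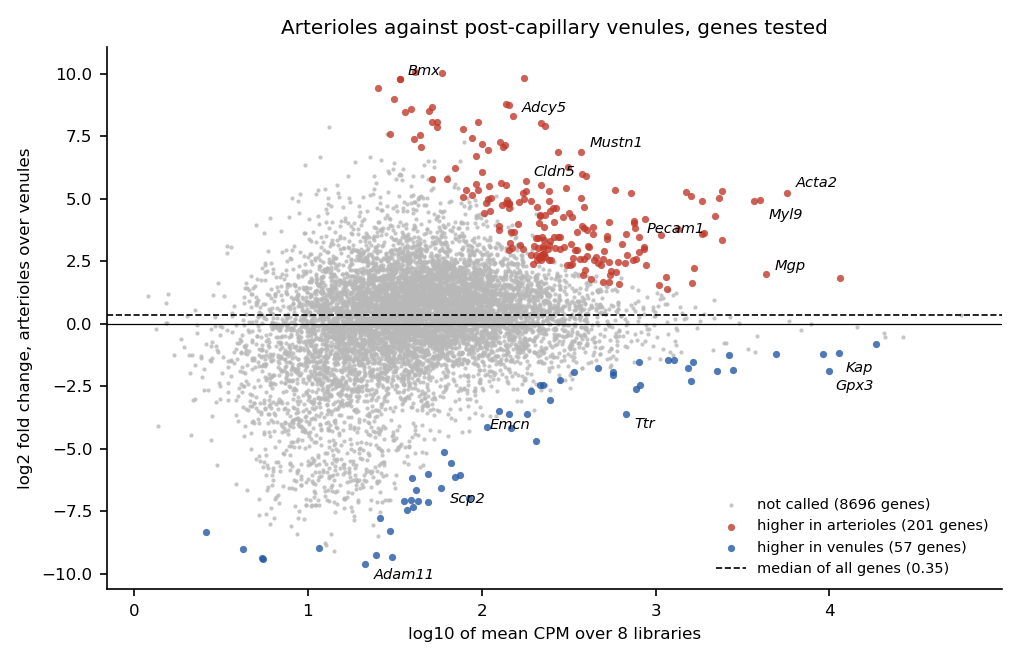
Log2 fold change of arterioles over venules (vertical axis) against log10 of the mean CPM over the 8 libraries (horizontal axis) for the 8954 genes tested, each gene 1 point. The 201 red genes were called higher in arterioles and the 57 blue genes higher in venules, and the dashed line is the median of all genes at 0.35.

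Of the 4 genes with the smallest p-values, 3 encode parts of the contractile apparatus of smooth muscle, and the other, Rgs5, is described with the renin cell genes. Myl9, the regulatory light chain of smooth muscle myosin, measured 10898, 9408, 5722 and 4829 CPM in arterioles and 280.5, 218, 249.9 and 254 CPM in venules. The lowest arteriole library was far above the highest venule library, with a mean ratio of 30.8 and a log2 fold change of 4.94 ± 0.34 (FDR 4.68e-08). Acta2, smooth muscle actin, measured 11528, 17905, 8078 and 6922 CPM in arterioles against 232, 469.5, 227 and 265 CPM in venules. Its log2 fold change was 5.22 ± 0.38 (FDR 5.52e-08), and venule 96 stood above the other 3 venule libraries. Myh11, the smooth muscle myosin heavy chain, measured 5677, 5519, 4264 and 3239 CPM in arterioles and 132, 56.2, 75.9 and 202 CPM in venules (log2 fold change 5.33 ± 0.44, FDR 3.18e-07). The groups did not overlap in any of these 3 genes, which the rule that names genes by p-value required. The venule libraries held Acta2, Myl9 and Myh11 at levels well above 0.

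The 20 smooth muscle contractile genes were examined as a list. Of 19 members tested, 15 were higher in arterioles (2.24% over all genes) and none was higher in venules. The median log2 fold change was 4.13 against 0.35 over all genes. Mylk, the kinase that activates smooth muscle myosin, averaged 4401 ± 1230.1 CPM in arterioles and 428 ± 101 CPM in venules (SD, n = 4) and had a ratio of 10.3. The actin crosslinker Flna averaged 7128 ± 3764 against 235 ± 94.7 CPM, the tropomyosin gene Tpm2 3096 ± 1939 against 89.0 ± 33.8 CPM and its relative Tpm1 2512 against 181 CPM. Calponin, Cnn1, measured 1370.4, 3059.6, 625 and 579 CPM in arterioles and 79.8, 44.8, 6.96 and 17.2 CPM in venules (log2 fold change 5.24 ± 0.75, FDR 0.000258). Transgelin, Tagln, had a higher arteriole level of 363, 796, 269 and 374 CPM against 5.36, 125, 46.5 and 6.13 CPM, and was called at an FDR of 0.0418. The Tagln call was lost with plain library totals and in a fit of 16 microdissected libraries. It was also lost without any 1 of arteriole 93, 96, 98 or 100 or venule 93, 98 or 100 (FDR up to 0.118). Des, Pln and Synm were among the members tested and not called, with log2 fold changes of 1.24 to 4.82, and Actg2 did not pass the filter on low counts. The genes of the list took 3.01 to 5.36% of all counts in arteriole libraries and 0.202 to 0.325% in venule libraries, beside 0.123 to 0.151% in whole kidney. In bulk samples such as these, fewer cells of a type and less RNA per cell cannot be told apart.

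Many smooth muscle genes are switched on through the CArG box, the site of serum response factor, whose coactivator Myocd is described below. Promoter sequences from RefSeq (GRCm38.p6), from 250 bases before to 50 bases after the start, were at hand for 13 of the 15 called members. The strict CArG box (CC, a run of A or T bases only, then GG, as in CCTAATAAGG) was searched on both strands. It occurred in 1 of the 13, Myl9, in 1.71% of the genes tested that had a promoter, and in 1.63% of the 32851 promoters of the table. The 250 bases upstream of Myl9 (chr2:156775214-156775463, plus strand) are shown with the box in capitals, 151 bases before the start, and those of Acta2 (chr19:34255374-34255623, minus strand) are shown beside them because the 2 genes had the smallest p-values of the comparison.
Myl9: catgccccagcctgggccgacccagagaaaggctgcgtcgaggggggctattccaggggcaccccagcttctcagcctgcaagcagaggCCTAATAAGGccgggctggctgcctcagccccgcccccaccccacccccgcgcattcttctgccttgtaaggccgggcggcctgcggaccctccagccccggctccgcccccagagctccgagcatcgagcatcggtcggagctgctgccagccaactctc
Acta2: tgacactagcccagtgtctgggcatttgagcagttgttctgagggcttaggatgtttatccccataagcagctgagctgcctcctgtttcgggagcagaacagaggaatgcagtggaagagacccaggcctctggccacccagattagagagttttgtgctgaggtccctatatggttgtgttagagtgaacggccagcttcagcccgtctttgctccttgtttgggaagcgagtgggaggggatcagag
In the Acta2 stretch, ccctatatgg and ccttgtttgg each differ from the strict form by 1 base and were not counted. A match is a description of the sequence and not a site in use, and the absence of a match says only that these letters are not in the window.

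Regulators and ion channels of smooth muscle followed in smaller numbers. Of 12 smooth muscle transcription factors tested, 3 were higher in arterioles (2.24% over all genes) and none in venules. Myocd, the coactivator that drives contractile genes, measured 62.5, 12.7, 23.3 and 103 CPM in arterioles and had 2 counts in all venule libraries together (FDR 0.0283), a ratio of 936 with a 95% counting interval of 228 to 6795. Mef2c, a muscle transcription factor, measured 348, 554, 356 and 346 CPM against 53.9, 60.6, 57.2 and 25.5 CPM (log2 fold change 3.02 ± 0.61, FDR 0.00694). The Myocd call was lost without arteriole 100 or without any 1 of the 4 venule libraries (FDR up to 0.109), whereas Mef2c was called in all 8 such fits. Of 13 channel and calcium handling genes tested, 4 were higher in arterioles (2.24% over all genes) and none in venules. The potassium channel subunit Kcnab1 measured 76.1, 262, 28.5 and 104 CPM in arterioles and had 3 counts over the venule libraries (ratio 1163, counting interval 438 to 6209.5, FDR 0.0021). Jph2, which holds calcium stores close to the plasma membrane, measured 524, 425, 255 and 514 CPM against 4.20, 31.0, 0.348 and 0.601 CPM (FDR 0.00666). The potassium channel Kcna5 (FDR 0.0384) and the calcium pump Atp2b4 (FDR 0.0448) were also called, and each lost its call without any 1 of arteriole 98 and venules 93, 96, 98 and 100, Kcna5 also without arteriole 93 and Atp2b4 also without arteriole 96 or 100 (FDR up to 0.154). Atp2b4 was not called with plain library totals or in the fit of 16 microdissected libraries.

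Receptors and second messenger enzymes of the contracting vessel wall were among the arteriole-higher genes. Adcy5, an adenylyl cyclase that makes cyclic AMP, measured 343, 135, 337 and 396 CPM in arterioles and 1.26, 1.10, 0.522 and 0.842 CPM in venules (log2 fold change 8.31 ± 0.93, FDR 1.74e-05). The ATP-gated channel P2rx1, the serotonin receptor Htr1b and the incretin receptor Glp1r lie outside the gene lists and were chosen after their values were seen. P2rx1 measured 131, 358, 193 and 78.9 CPM in arterioles and 0.481 to 1.05 CPM in venules (log2 fold change 8.09 ± 1.19, FDR 0.000371). Htr1b measured 171, 189.7, 8 and 46 CPM against 0.105 to 0.522 CPM (log2 fold change 8.69 ± 1.79, FDR 0.00808). Glp1r measured 122, 363, 108 and 422 CPM against 14.1, 5.30, 0.522 and 0.601 CPM (log2 fold change 5.62 ± 1.15, FDR 0.00759). In none of these 4 genes did the groups overlap, which the naming rule required of Adcy5 and which was known when the others were chosen. All 4 were called in each fit that left out 1 library.

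Of 14 tested genes of nitric oxide, endothelin, prostanoid and other vasoactive signalling, 4 were higher in arterioles (2.24% over all genes) and none in venules. The median log2 fold change was 2.21. Nos3, the endothelial nitric oxide synthase, measured 473, 397, 396 and 387 CPM in arterioles and 10.6, 23.3, 1.22 and 48.3 CPM in venules (log2 fold change 4.31 ± 0.86, FDR 0.00617). Ptgis, which makes the vasodilator prostacyclin, measured 675, 1067, 430.4 and 301 CPM against 1.89, 26.7, 1.91 and 1.20 CPM (log2 fold change 6.28 ± 0.99, FDR 0.00074), with venule 96 above its group. Prkg1, the kinase through which cyclic GMP relaxes smooth muscle, had 49.2 to 139 CPM in arterioles and 0.105 to 0.361 CPM in venules (FDR 0.0117). Pde3a, a phosphodiesterase that breaks down cyclic AMP, was called at an FDR of 0.045. The Prkg1 call was lost without venule 93, 96 or 98 (FDR up to 0.0693), and that of Pde3a without any 1 of the 4 arterioles or venules 93, 96 and 100 (FDR up to 0.145) and with plain library totals. The endothelin receptors Ednra (log2 fold change 3.83, FDR 0.367) and Ednrb (2.54, FDR 0.636) and the angiotensin receptor Agtr1a (1.49, FDR 0.789) were not called.

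The renin system gave the opposite sign for 1 gene. Ren1, which encodes renin and is made in juxtaglomerular cells of the arteriole wall next to the glomerulus, measured 4.41, 22.3, 2.63 and 4.36 CPM in arterioles and 141, 2.98, 37.9 and 186 CPM in venules. The groups overlapped through venule 96, and the log2 fold change of -3.45 ± 1.49 did not pass the test (FDR 0.263). Ren1 was called higher in venules in the fits of 16 (FDR 0.0127) and of all 20 libraries (FDR 0.00621). Of 7 tested members of the juxtaglomerular list, 3 were higher in arterioles (2.24% over all genes). These were Rgs5, Gja4 and Crip1, which are not restricted to renin cells. Rgs5, a regulator of G protein signalling in pericytes and smooth muscle, measured 5419.9, 5616, 3435 and 3578 CPM against 110.2, 143, 89.8 and 211 CPM (log2 fold change 5.02 ± 0.39, FDR 1.27e-07). Crip1, a LIM domain protein, measured 3025, 5553, 2731 and 3025 CPM against 138, 159, 130.2 and 52.1 CPM (FDR 6.58e-07). Akr1b7, another renin cell gene, had 2 counts in arterioles and 1 in venules and was not tested.

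**Figure D2:**
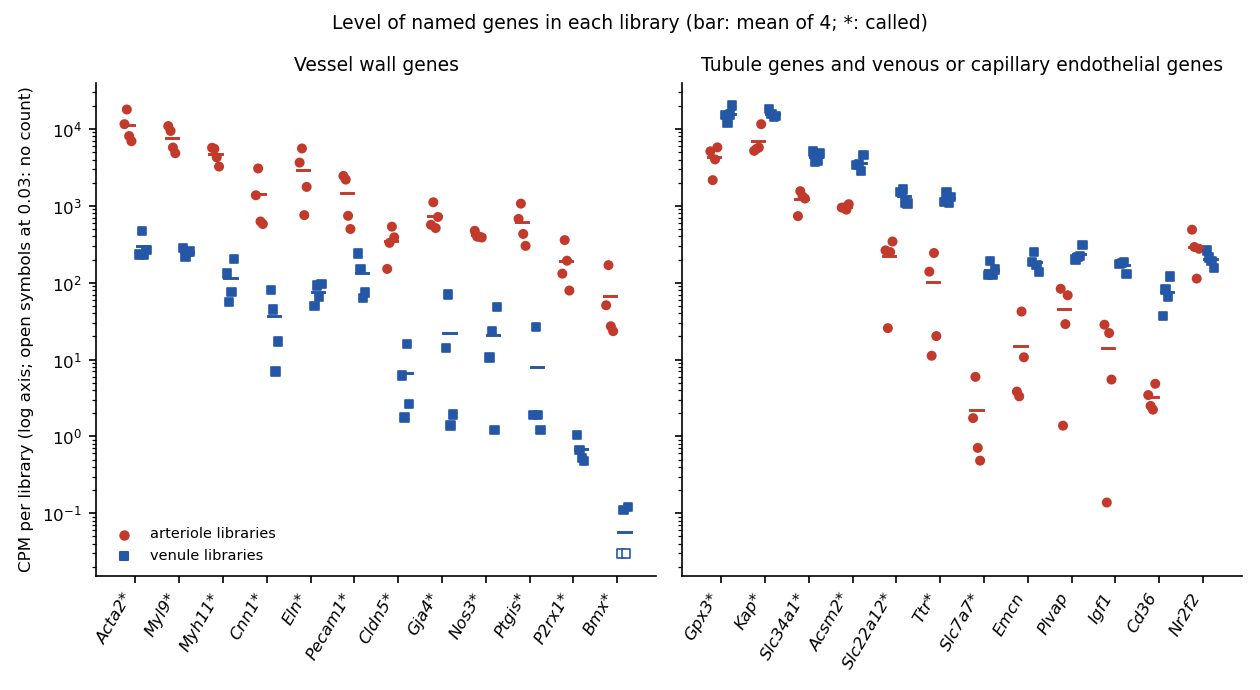
CPM of named genes on a log axis in each of the 4 arteriole libraries (red circles) and 4 venule libraries (blue squares), with the mean of each group as a bar, open symbols for libraries with no count and asterisks for called genes. The vessel wall genes of the left panel, such as Acta2 at 6922 to 17905 CPM against 227 to 469.5 CPM, show no overlap, and Nr2f2 at the right end of the right panel does.

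Most tested genes of the arterial endothelial list were called higher in arterioles. Of 17 members tested, 10 were higher in arterioles (2.24% over all genes) and none was higher in venules. All 17 had a positive fold change, and the median was 4.19. The list was chosen with earlier results of these data known, and Cytl1 and Bmx are also among the study's RT-PCR genes. Mgp, a matrix protein that inhibits calcification, measured 5843, 9622, 5905 and 6109.9 CPM in arterioles and 1576, 2245, 1112 and 2054 CPM in venules (log2 fold change 1.98 ± 0.29, FDR 0.000435). Ltbp4, which binds latent TGF-beta to elastic fibres, measured 1908, 2986, 1565 and 1513 CPM against 238, 146, 156 and 147 CPM (log2 fold change 3.54 ± 0.40, FDR 1.92e-05). Cytl1, which encodes a small secreted protein, measured 231, 418, 343 and 14.7 CPM against 1.37, 2.54, 1.22 and 1.32 CPM (FDR 0.000656), with arteriole 100 far below the other 3. The semaphorin Sema3g measured 423, 964, 832 and 602 CPM against 71.2, 28.8, 4.35 and 81.9 CPM (FDR 0.0031). Gja4, the gap junction protein connexin 37, measured 566, 1111, 513 and 716 CPM against 14.2, 69.8, 1.39 and 1.92 CPM (FDR 0.00446). Bmx, a tyrosine kinase of arterial endothelium, measured 50.8, 169, 27.1 and 23.4 CPM and had 2 counts over the 4 venule libraries (FDR 0.0146), a ratio of 1171 with a counting interval of 305 to 9100.1. The Bmx call was lost without arteriole 96 or any 1 of the 4 venule libraries (FDR up to 0.0764). Stmn2 (log2 fold change 7.79, FDR 0.00391) and the netrin receptor Unc5b (8.06, FDR 0.00641) were also called, Stmn2 not without arteriole 96 (FDR 0.0642).

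Notch signalling, which builds the arterial programme, showed the same direction. Of 14 tested members of the pathway, 4 were higher in arterioles (2.24% over all genes) and none in venules. The median log2 fold change was 3.37. The ligand Jag1 measured 132, 71.8, 196 and 391 CPM in arterioles and 5.36, 8.62, 14.3 and 8.78 CPM in venules (FDR 0.0132). The receptor Notch3, carried by mural cells, measured 711, 609, 373 and 318 CPM against 32.1, 106, 0.696 and 43.8 CPM (FDR 0.0349). The endothelial receptor Notch4 measured 5.56, 1132, 135 and 210.5 CPM against 28.9, 12.1, 7.31 and 0.962 CPM, and arteriole 93 lay inside the range of the venules although the gene was called (FDR 0.0283). The target gene Hey2 had 24.4 to 114 CPM in arterioles and 2 counts over the venule libraries (FDR 0.0132). The folds kept their direction when 1 library was left out, from 9.42 to 10.25 on the log2 scale for Hey2, 3.87 to 4.71 for Jag1, 3.26 to 5.75 for Notch4 and 3.04 to 4.29 for Notch3, but the calls did not all hold. That of Hey2 was lost without venule 93, 96 or 98 (FDR up to 0.0713), that of Jag1 without arteriole 100 or venule 93, 96 or 100 (up to 0.0944), that of Notch4 without arteriole 96 or 98 or venule 96, 98 or 100 (up to 0.234), and that of Notch3 without any 1 arteriole or venule 93 or 100 (up to 0.127). The Notch4 call was also lost with limma voom and quality weights. The ephrin Efnb2 measured 27.4, 252, 36.9 and 96.5 CPM in arterioles and 0.105, 22.2, 0.174 and 0.120 CPM in venules, so that the groups did not overlap but the FDR was 0.242, and it was called once venule 96 was left out and with the replicate block (FDR 0.0259).

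Of 20 tested genes of the pan-endothelial list, 5 were higher in arterioles (2.24% over all genes) and none was higher in venules. The other 15 were not called, and the median log2 fold change was 2.07. The list holds Emcn, whose protein the paper describes as missing from arteriolar endothelium, so not every member is shared by all endothelium. Pecam1, the adhesion molecule used as a general endothelial marker, measured 2447, 2192, 740.4 and 499 CPM in arterioles and 240.5, 152, 63.2 and 74.2 CPM in venules (log2 fold change 3.47 ± 0.58, FDR 0.00126). Cldn5, a tight junction protein, measured 151, 329, 535 and 389 CPM against 6.2, 1.77, 15.8 and 2.65 CPM (log2 fold change 5.73 ± 0.90, FDR 0.000711). Egfl7, a secreted endothelial factor, averaged 632 ± 194 against 105 ± 20 CPM (FDR 0.0041), and Mmrn2, an endothelial matrix protein, 696 ± 563 against 106 ± 63.3 CPM (FDR 0.0148). The Mmrn2 call was lost without arteriole 96 or venule 93, 96 or 100 (FDR up to 0.0729). Cdh5, the cadherin of endothelial junctions, measured 40.8, 184, 58.9 and 210 CPM in arterioles and 32.8, 12.6, 19.5 and 7.09 CPM in venules and was not called (log2 fold change 2.78 ± 1.12, FDR 0.217). Pan-endothelial genes took 0.449 to 0.571% of counts in arterioles, 0.127 to 0.218% in venules and 0.0721 to 0.0824% in whole kidney.

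No venous endothelial gene was called higher in venules in this fit. Of 17 members of the venous list tested, 1 was higher in arterioles (2.24% over all genes) and 16 were not called. The median log2 fold change was 0.12. The arteriole-higher member was Vwf, the clotting factor stored by endothelium, with 432, 891, 185 and 144 CPM in arterioles and 0.945, 44.0, 34.5 and 1.92 CPM in venules (log2 fold change 4.34 ± 1.05, FDR 0.0254). Its call was lost without arteriole 93, 96 or 98 or venule 93 or 100 (FDR up to 0.0924). The venous transcription factor Nr2f2 measured 489, 291, 113 and 276 CPM in arterioles and 261, 213, 192 and 154 CPM in venules, with overlap and a log2 fold change of 0.51 ± 0.57 (FDR 0.795). Ephb4, the venous ephrin receptor, measured 0.192, 133, 0.101 and 8.07 CPM against 0.315, 0.221, 30.3 and 41.2 CPM (FDR 0.909). The chemokine receptor Ackr1, a defining gene of venules that admit leukocytes, had no count in either group. Venous list genes took 0.0908 to 0.179% of counts in arterioles and 0.145 to 0.183% in venules, against 0.0707 to 0.0828% in whole kidney, so the shares of the 2 vessel types overlapped. In 3 of the 17 members, Emcn, Plvap and Igf1, all 4 venule libraries lay above all 4 arteriole libraries (7.49% over all genes). In 1, Vwf, the order was the opposite (6.43% over all genes).

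A few endothelial genes of the capillary and venous side were higher in all 4 venule libraries than in all 4 arteriole libraries without passing the test. Emcn, the sialomucin endomucin, measured 186, 249, 170 and 137 CPM in venules and 3.83, 3.32, 42.1 and 10.7 CPM in arterioles (log2 fold change -3.63 ± 1.03, FDR 0.0649) and was called without arteriole 98 and in 7 other alternatives, among them the DESeq2 Wald test (FDR 0.00614) and the replicate block (FDR 0.0262). Plvap, which forms the diaphragms of fenestrae, measured 200.1, 217, 224 and 309 CPM in venules and 83.2, 1.38, 28.9 and 68.6 CPM in arterioles (-2.38 ± 0.90, FDR 0.174). The growth factor Igf1 measured 176, 182, 187 and 129 CPM in venules and 28.4, 0.138, 22.1 and 5.49 CPM in arterioles (-3.58 ± 1.18, FDR 0.107). Cd36, a fatty acid receptor, measured 36.6, 81.5, 66.1 and 120.2 CPM in venules and 3.45, 2.49, 2.23 and 4.84 CPM in arterioles (-4.54 ± 1.52, FDR 0.109). Igf1 was called in 4 alternatives, among them the DESeq2 Wald test (FDR 0.0383) and the replicate block (FDR 0.044), Cd36 in 5, among them the DESeq2 Wald test (FDR 2.9e-05), and Plvap in 2, the version 4 form of the quasi-likelihood test and the fit of all 20 libraries (FDR 0.0444). This order of the libraries was found in 7.49% of all genes tested. In contrast to these 4, the endothelial gene Ehd3 overlapped widely, at 416, 6.23, 7.39 and 188 CPM in arterioles and 96.2 to 174 CPM in venules (FDR 0.969). Of 11 capillary endothelial genes tested none was called, with a median log2 fold change of 0.07.

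Part of the matrix genes of the vessel wall were higher in arterioles. Of 17 tested genes of elastic fibres and arterial matrix, 5 were higher in arterioles (2.24% over all genes) and none in venules. All 17 had a positive fold change (median 2.56). The called members Mgp, Ltbp4 and Fbln5 are also counted in the arterial endothelial list. Eln, elastin, measured 3646, 5571, 756 and 1761 CPM in arterioles and 49.8, 91.7, 64.9 and 96.3 CPM in venules (log2 fold change 5.28 ± 0.55, FDR 7.52e-06). Optc, which encodes the proteoglycan opticin, measured 337, 437, 169.8 and 157 CPM against 0.735, 0.442, 0.522 and 0.721 CPM, a ratio of 455 (FDR 1.89e-05). Of 15 basement membrane genes tested, 3 were higher in arterioles (2.24% over all genes). The laminin chain Lamb2 stood at 814 to 1751 against 46.4 to 161 CPM (FDR 0.000247). The heparan sulfate proteoglycan Hspg2 stood at 603 to 1300.1 against 31.1 to 142 CPM (FDR 0.000948). The collagen chain Col4a2 stood at 250.2 to 1445 against 83.5 to 319.9 CPM (FDR 0.0215). The other 12 basement membrane genes were not called, 6 of the 15 had a negative fold change, and the median was 1.84. Col4a2 overlapped through arteriole 100 and venule 100 and lost its call without arteriole 93 or 96 or venule 93, 96 or 98 (FDR up to 0.097). Of 17 tested genes of fibroblasts and the adventitia, 2 were higher in arterioles (2.24% over all genes), and in 7 all 4 arteriole libraries lay above all 4 venule libraries (6.43% over all genes). The 2 called were Sparc, which binds collagen, at 1492 to 3168 against 504 to 1157 CPM (FDR 0.0132, lost in the DESeq2 Wald test and without venule 93, 98 or 100, up to 0.0678), and Serpinf1, at 38.1 to 306 against 0.174 to 4.57 CPM (FDR 0.0436, lost with plain library totals and without arteriole 93, 96 or 98 or any 1 venule, up to 0.189). The fibrillar collagens Col1a1 (log2 fold change 1.31, FDR 0.143) and Col3a1 (1.30, FDR 0.228) were not called, although neither overlapped.

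TGF-beta and BMP signalling and the pericyte genes completed the arteriole-higher groups. Of 18 tested TGF-beta and BMP genes, 5 were higher in arterioles (2.24% over all genes) and none in venules, with a median of 1.59. The ligand Tgfb3 measured 622, 624, 221 and 279 CPM in arterioles and 4.20, 0.884, 0.174 and 1.32 CPM in venules (log2 fold change 8.02 ± 0.98, FDR 3.75e-05). Id3, a target of BMP signalling, measured 412, 1496, 961 and 1742 CPM against 80.5, 131, 180.1 and 107 CPM (FDR 0.000734). Its relative Id1 (FDR 0.0391) and the endothelial BMP receptor Acvrl1 (FDR 0.0221) lost their calls without venule 96 or 100 or arteriole 98, Id1 also without arteriole 96 or 100 or venule 93 and Acvrl1 also without venule 98 (FDR up to 0.142). Id1 was also not called with plain library totals. Of 11 mesangial and pericyte genes tested, 5 were higher in arterioles (2.24% over all genes). Cspg4, the pericyte proteoglycan NG2, measured 569, 1148, 314 and 159 CPM against 1.26, 2.54, 9.05 and 5.65 CPM (log2 fold change 6.89 ± 0.87, FDR 5.78e-05). The adhesion molecule Mcam (FDR 0.0178) and the protease inhibitor Serpine2 (FDR 0.0283) were also called, and both lost the call without arteriole 93 or venule 93, 96 or 98, Serpine2 also without arteriole 98 or venule 100 (FDR up to 0.115) and with plain library totals. Pdgfrb, the receptor used to mark pericytes, was level, at 90.0 CPM in arterioles and 89.1 CPM in venules on average (FDR 0.996).

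**Figure D3:**
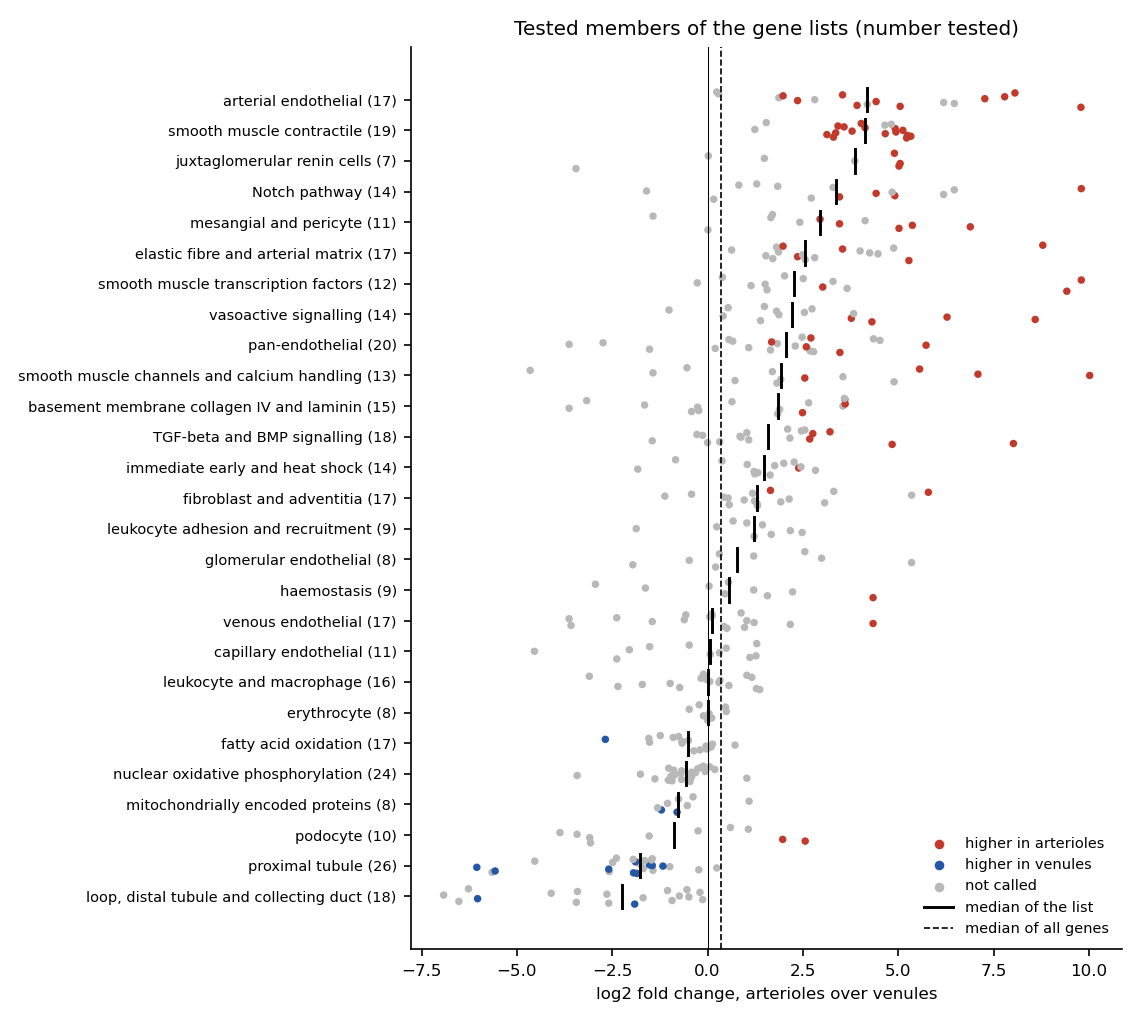
Log2 fold change of arterioles over venules for each tested member of the gene lists with at least 7 tested members, with called genes in red or blue, the median of each list as a bar and the median of all genes as a dashed line. The arterial endothelial and smooth muscle contractile lists stand at medians of 4.19 and 4.13, and the 2 tubule lists at -1.78 and -2.25.

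Further genes were named for a small p-value or a large fold toward arterioles. The muscle gene Mustn1, named for its p-value, measured 742, 1270.3, 429.8 and 534 CPM in arterioles and 14.7, 5.19, 2.96 and 2.04 CPM in venules (FDR 1.74e-05). Mark1, a kinase that regulates microtubules, measured 682, 502, 102 and 122 CPM against 0 to 0.552 CPM (log2 fold change 9.82 ± 1.14, FDR 2.49e-05). Pdlim3, a protein of actin filaments in muscle, had 124 to 599 CPM against 0 to 0.994 CPM (FDR 9.47e-05). Map6, which stabilises microtubules, had 23.7 to 222 CPM in arterioles and 2 counts in venules (ratio 1441, counting interval 375 to 11196, FDR 0.00826), with arteriole 96 far above the other 3. Without arteriole 96, Map6 was not called (FDR 0.0574). Klf2, a transcription factor induced by flow, was the 1 gene called among 14 tested immediate early and heat shock genes (FDR 0.0418), beside 2.24% over all genes. Klf2 was not called with plain library totals, with no filter, with the replicate block (FDR 0.0527) or without arteriole 93 or 98 or any 1 venule (FDR up to 0.143).

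Among the genes higher in venules, those named for a small p-value included genes of the tubule epithelium and of its metabolism. Of the 57 venule-higher genes, 14 were members of any gene list. Gpx3, a secreted glutathione peroxidase made by proximal tubule cells, measured 15161, 12044, 15464 and 20226 CPM in venules and 5109, 2157, 4011 and 5753 CPM in arterioles (log2 fold change -1.88 ± 0.28, FDR 0.000435). The acyl-CoA synthetase Acsm2 measured 3383, 3446, 2836 and 4581 CPM against 947, 950.2, 891 and 1049 CPM (-1.89 ± 0.30, FDR 0.000727). Slc34a1, the sodium-phosphate cotransporter of the proximal tubule, measured 5102, 3690.1, 3857 and 4769 CPM against 734, 1549, 1321 and 1242 CPM (-1.85 ± 0.31, FDR 0.00122). The groups did not overlap in any of the 3, which the rule that named them required. Gpx3, Acsm2 and Slc34a1 kept their calls in every fit that left out 1 library and lost them in the DESeq2 Wald test (FDR 0.120 to 0.179). The Gpx3 call was also lost with limma voom and quality weights.

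Of 26 proximal tubule genes tested, 9 were higher in venules (background 0.637%) and none was higher in arterioles, 25 had a negative fold change, and the median was -1.78. In 22 of the 26 all 4 venule libraries lay above all 4 arteriole libraries, beside 7.49% of all genes tested. The urate transporter Slc22a12 measured 1524, 1623, 1102 and 1068 CPM in venules and 263, 25.6, 249.7 and 343 CPM in arterioles (FDR 0.0123). It was not called in the DESeq2 Wald test or without arteriole 98 (FDR up to 0.0591). Slc7a7, part of the exporter of dibasic amino acids, measured 127, 190.4, 125 and 148 CPM against 1.73, 5.95, 0.709 and 0.484 CPM (FDR 0.011), and was not called without venule 96 or 100 (FDR up to 0.0727). Kap, the androgen-regulated kidney protein, measured 18066, 15728, 14221 and 14777 CPM against 5190.3, 5504, 5725 and 11528 CPM (-1.17 ± 0.26, FDR 0.0133), with arteriole 100 above the rest of its group. Its call was lost with DESeq2 size factors and in the DESeq2 Wald test (FDR up to 0.498), and without venule 93 (FDR 0.0524). Lrp2, the endocytic receptor megalin, averaged 537 against 140.2 CPM (FDR 0.0474). Its call was lost with DESeq2 size factors, in the DESeq2 Wald test and with no filter (FDR up to 0.207). It was also lost without any 1 library other than arteriole 96 (FDR up to 0.149). The number of members called was 5 with DESeq2 size factors, 11 with plain totals and 4 in the DESeq2 Wald test, and it was 4 without venule 93, 96 or 100, 5 without arteriole 98 and 6 without venule 98.

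Other tubule genes pointed the same way. Of 18 tested genes from the loop of Henle to the collecting duct, 2 were higher in venules (0.637% over all genes). All 18 had a negative fold change, and the median was -2.25. Umod, the uromodulin of the thick ascending limb, measured 1002, 653, 305 and 1634 CPM in venules and 257, 245, 145 and 308 CPM in arterioles (FDR 0.0436), with overlap between venule 98 and arteriole 100. The potassium channel Kcnj1 measured 40.4, 62.2, 124 and 162 CPM against 0.575, 0.692, 0.304 and 4.36 CPM (FDR 0.0447). Neither was called with DESeq2 size factors or with limma voom and quality weights, nor Umod in the DESeq2 Wald test (FDR up to 0.25). Each lost its call without any 1 library other than venule 98 for Umod (FDR up to 0.206) and other than arteriole 100 for Kcnj1 (FDR up to 0.166). The cystine transporter Slc7a9 measured 118, 93.3, 287 and 176 CPM in venules and 0.575 to 2.21 CPM in arterioles (-6.97 ± 1.20, FDR 0.00172). Fxyd2, a subunit of the sodium pump, averaged 2361 ± 90.8 against 697 ± 174 CPM (FDR 0.00335). Slc7a9 was not called with limma voom and quality weights (FDR 0.0569), nor Fxyd2 in the DESeq2 Wald test (FDR 0.12). The bicarbonate cotransporter Slc4a4 was called at an FDR of 0.0145. It was not called in the DESeq2 Wald test or without arteriole 98 or venule 100 (FDR up to 0.0921).

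Several named venule-higher genes encode enzymes or carrier proteins. Prodh, which starts the breakdown of proline, measured 119.6, 132, 161 and 137 CPM in venules and 1.52 to 2.49 CPM in arterioles (-6.15 ± 1.23, FDR 0.00649). Scp2, a sterol carrier of peroxisomes, measured 128, 105, 139.7 and 90.4 CPM against 0.807 to 1.94 CPM (FDR 0.0102), and was not called without venule 93 or 98 (FDR up to 0.0693). The carrier protein Ttr measured 1117, 1485, 1103 and 1292 CPM against 139, 11.2, 243 and 20.2 CPM (-3.59 ± 0.72, FDR 0.00651), and the trypsin inhibitor Spink1 2845, 3239, 1900.3 and 2662 CPM against 422, 173, 721 and 856 CPM (FDR 0.00344), which was not called in the DESeq2 Wald test (FDR 0.0524). Of 17 fatty acid oxidation genes tested, 1 was higher in venules (0.637% over all genes) and none in arterioles, with a median log2 fold change of -0.50. Of 8 tested mitochondrially encoded genes, 2 subunits of complex I were higher in venules (0.637% over all genes). These were mt-Nd1 at 21207 to 28932 against 10823 to 16423 CPM (FDR 0.0301) and mt-Nd2 at 8138 to 18815 against 3894 to 6959.7 CPM (FDR 0.0178). Both lost the call with DESeq2 size factors, in the DESeq2 Wald test and without venule 93 or 96. The mt-Nd1 call was also lost without venule 100, and that of mt-Nd2 without arteriole 98 and with limma voom and quality weights. The FDR reached 0.127 when 1 library was left out, and 0.774 for mt-Nd1 and 0.555 for mt-Nd2 over all alternatives. None of 24 nuclear genes of oxidative phosphorylation was called, with a median of -0.57.

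The venule-higher genes of largest fold change were of mixed function and lower in level. Adam11 measured 27.3, 40, 16 and 88.4 CPM in venules and had 1 count over the arteriole libraries (FDR 0.0329), a ratio of 1063 with a counting interval of 219.6 to 48329.6. Ccdc141, Acsm5, Nectin2, Kctd17, Hook2 and Rbfa averaged 52.0 to 97.9 CPM in venules and 0.174 to 0.683 CPM in arterioles, with FDR values of 0.0135 to 0.0422. Nrxn2 averaged 78.4 CPM against 0.573 CPM (FDR 0.028), and its locus overlaps that of Slc22a12 on the other strand (GRCm38, chromosome 19, 6418731 to 6544169 for Nrxn2 and 6535845 to 6543032 for Slc22a12), so their reads cannot be told apart where the strand used in counting is not given. The same limit touches Prodh, which overlaps Dgcr6, and Slc7a7, which overlaps Oxa1l. It also touches other genes named above, among them Plvap, which overlaps Gtpbp3 (8880 and 1866 counts over the 8 libraries). Further cases are Egfl7 with Agpat2 (21783 and 1134), Tagln with Pcsk7 (14116 and 875) and Tgfb3 with Ttll5 (11731 and 318). None of these 8 genes of largest fold change kept its call in every fit that left out 1 library. All 8 calls were lost without venule 96 and without venule 100, those other than Kctd17 without venule 93, and those other than Nectin2 without venule 98, with an FDR of up to 0.163. Among arterioles, leaving out arteriole 98 ended the calls of Adam11, Ccdc141, Acsm5, Nectin2, Hook2 and Nrxn2, arteriole 93 or 96 those of Adam11 and Acsm5, and arteriole 100 those of Acsm5 and Hook2. Acsm5 (FDR 0.0727) and Hook2 (FDR 0.0801) were also not called with the replicate block. Acsm5, Nectin2, Kctd17, Hook2 and Nrxn2 were not called with limma voom and quality weights. Adam11 was not called in the version 4 form of the quasi-likelihood test, nor Acsm5 with no filter or Hook2 with DESeq2 size factors.

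The share of counts taken by tubule genes moved with the vessel type. Proximal tubule genes took 0.713 to 1.84% of counts in arterioles, 3.65 to 4.10% in venules and 5.67 to 6.19% in whole kidney. The list from the loop of Henle to the collecting duct took 0.120 to 0.229%, 0.379 to 0.599% and 0.458 to 0.490% in the same order, and mitochondrially encoded genes 4.18 to 6.49%, 9.80 to 11.6% and 11.1 to 12.2%. The shares of arterioles and venules did not overlap in any of these 3 lists, and no member of the proximal tubule list was absent from the genes tested. Whole kidney libraries were prepared with fewer PCR cycles and serve only as a reference. With plain library totals, the whole kidney mean was above the venule mean in 19 of the 57 venule-higher genes (33.3%, beside 45.6% of all genes tested). It was above the arteriole mean in 56 of the 57 (98.2%, beside 46% of all genes tested). The part of tubule RNA in the venule-higher calls was not tested.

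**Figure D4:**
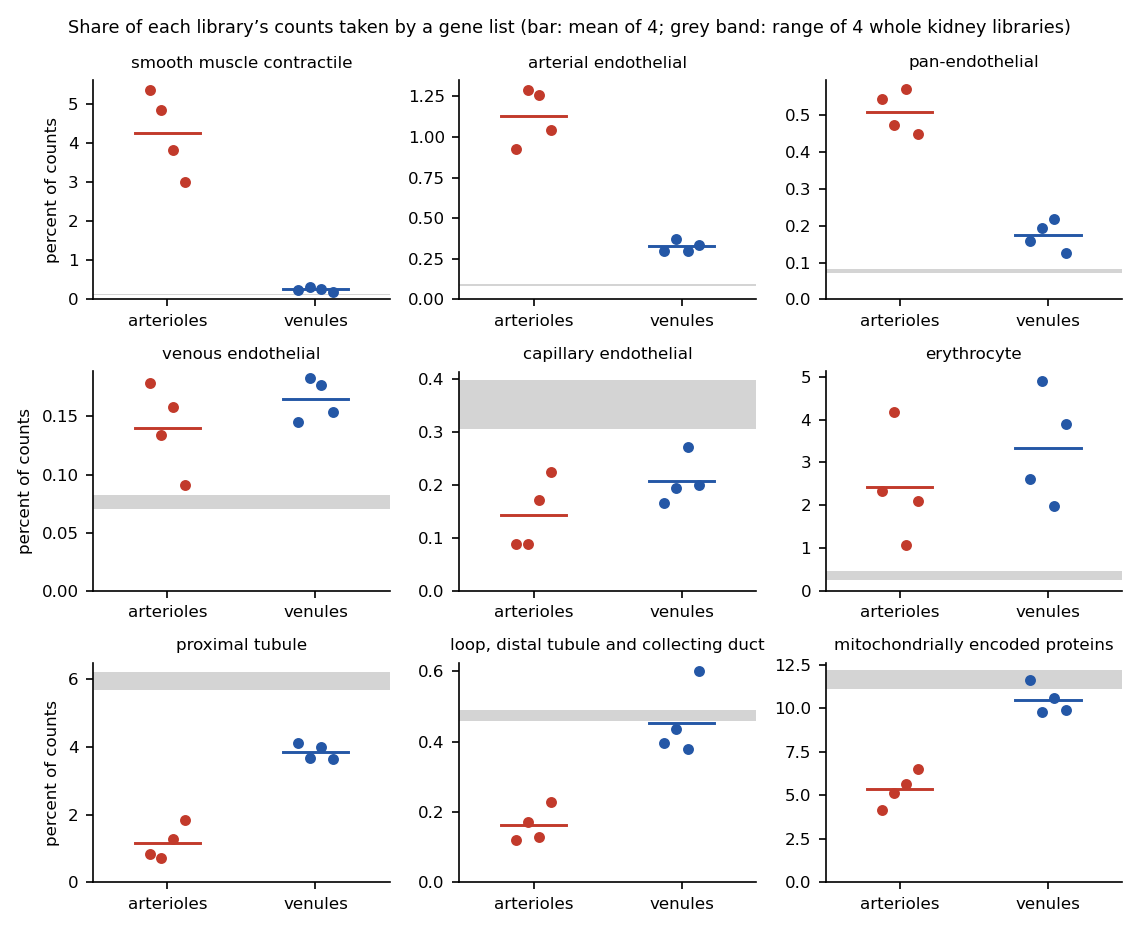
Percent of each library's counts taken by 9 gene lists in the 4 arteriole (red) and 4 venule (blue) libraries, with the mean of each group as a bar and the range of 4 whole kidney libraries as a grey band; each panel has its own axis from 0. Smooth muscle genes took 3.01 to 5.36% of counts in arterioles and 0.202 to 0.325% in venules, and proximal tubule genes 0.713 to 1.84% and 3.65 to 4.10%.

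No tested gene of the blood and immune cell lists was called, which does not show that levels were equal. None of 8 erythrocyte genes tested was called, with a median of 0.02, and the near-identical copies of hemoglobin genes can exchange reads. Erythrocyte genes took 1.08 to 4.18% of counts in arterioles (mean 2.43%) and 1.99 to 4.89% in venules (mean 3.35%), with overlap. None of 16 leukocyte and macrophage genes was called (median 0.02), nor any of 9 tested genes of leukocyte adhesion and recruitment (median 1.22). The adhesion receptors Vcam1 (log2 fold change 1.22, FDR 0.63) and Icam1 (1.67, FDR 0.679) and P-selectin, Selp (2.17, FDR 0.74), were among these. The housekeeping genes Gapdh (-0.65 ± 0.70, FDR 0.788) and Ppia (0.47 ± 1.32, FDR 0.942) were not called and varied widely between libraries, and the sign for Ppia turned without arteriole 100 (-0.28). Gapdh ranged from 24.0 to 495 CPM in arterioles and from 196 to 531 CPM in venules.

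Markers of the glomerulus, which adjoins the arterioles, were mixed. Of 10 podocyte genes tested, 2 were higher in arterioles (2.24% over all genes). In 6 the fold change was negative, and the median was -0.89. The 2 were Podxl (FDR 0.0145), which is also made by endothelium, and the actin-binding Synpo (FDR 0.0283). Nphs1, which defines podocytes, was under the filter on low counts. Podxl and Synpo lost their calls without venule 93, 96 or 98, Synpo also without venule 100 or arteriole 98 or 100 (FDR up to 0.113). Synpo was also not called with plain library totals. Podocyte genes took 0.110 to 0.190% of counts in arterioles and 0.0594 to 0.0771% in venules. Podxl and Synpo, with 25380 and 11217 counts over the arteriole libraries, made up most of the arteriole share. The part of glomerular RNA in the arteriole-higher calls was not tested.

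A further list held the genes measured by quantitative RT-PCR. The marker mRNAs among them were picked from the sequencing of these samples and are no independent evidence. Per the paper, Pecam1, Plvap, Emcn and Ehd3 were selected before sequencing for their known patterns, and Cdh5, Gapdh and Ppia served as reference genes. Of 19 members tested, 6 were higher in arterioles (2.24% over all genes) and 2 in venules (0.637% over all genes), with a median of -0.65. Among the rest of the lists, 1 of 9 tested haemostasis genes was called, Vwf, and 1 of 3 connexins, Gja4, both higher in arterioles (2.24% over all genes). None was called of 8 glomerular endothelial, 5 lymphatic endothelial, 6 parietal epithelial, 2 adipocyte, 2 nerve and Schwann cell and 1 platelet gene tested.

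The number of genes called in either direction moved with the way the fit was made, as shown for each setting in the chart of calls. The order of named genes above rests on the quasi-likelihood fit of these 8 libraries. In a fit of all 20 libraries, which tested 13813 genes in place of 8954, 200 of the 201 arteriole-higher genes and all 57 venule-higher genes were called again, among 648 and 782 genes. Under DESeq2 size factors and plain totals together, 164 of the 201 and 31 of the 57 kept their call. The smooth muscle contractile list had 13 to 17 members called higher in arterioles under every alternative tried, and the arterial endothelial list 7 to 14. The venous endothelial list had at most 3 members called higher in venules under any of them.

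**Figure D5:**
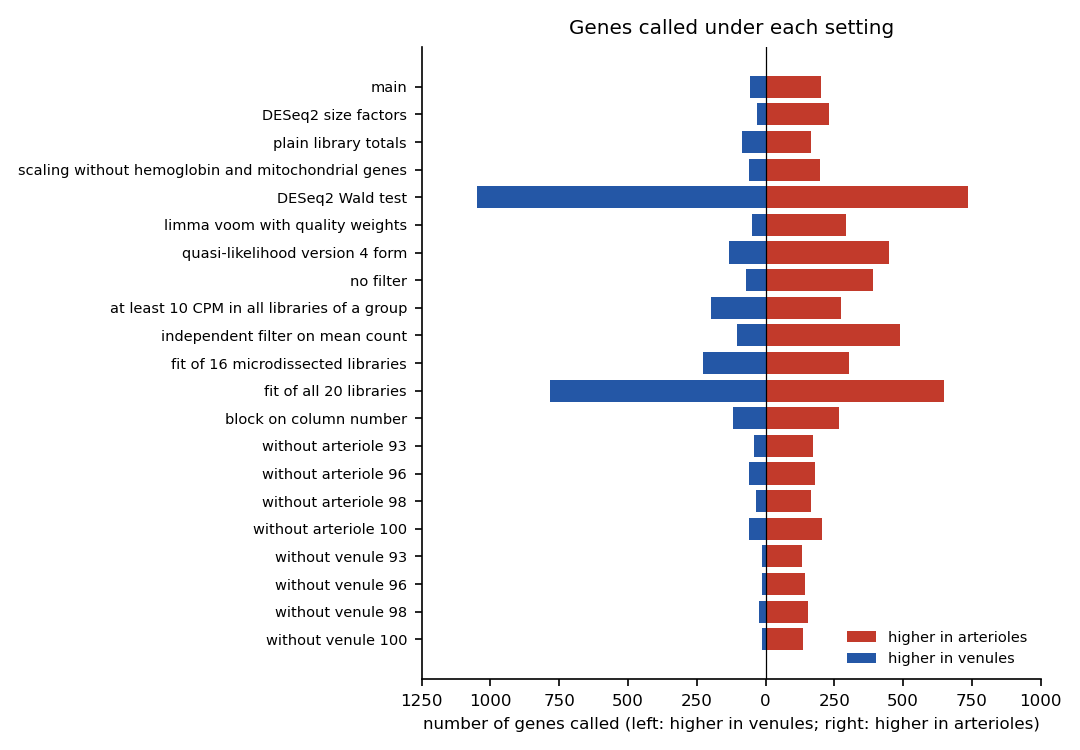
Number of genes called higher in arterioles (red, to the right) and higher in venules (blue, to the left) under each setting, from the fit reported here at the top (201 and 57 genes) to the fits without 1 library at the bottom. The venule-higher count spans 13 genes without venule 100 to 1047 in the DESeq2 Wald test, and the arteriole-higher count 132 without venule 93 to 737 in the DESeq2 Wald test.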

How the data were processed

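RNA from laser-microdissected vessels was sequenced with a QuantSeq 3′ mRNA kit in a low-input form. Per the paper's methods, the authors used bbduk for trimming and STAR 2.7 for alignment to GRCm38.p6 and deposited raw read counts per gene from htseq-count (HTSeq 0.13). The submitters' processing notes also name FastQC 0.11.8, MultiQC 1.7, SAMtools 1.9, featureCounts and GRCm39. Neither the strand setting nor whether molecular identifiers were used is stated in the paper or labels. Counting intervals cover counting error only, at 95%.

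The deposited table holds 34255 genes. Columns were matched to samples by label, and 148 columns that match no sample given here were not used. The 4 arteriole and 4 venule libraries were fitted alone with edgeR 4.0.16 (R 4.3.3) by quasi-likelihood F tests (the form of edgeR version 3), with TMM scaling, filterByExpr and Benjamini-Hochberg adjustment over all 8954 genes kept. The fit was checked on simulated data. Alternatives used DESeq2 1.42.0, limma 3.58.1, other scalings, filters and sample sets, a block and the omission of each library. Single values were compared by two-sided exact permutation tests (scipy 1.17.1), whose smallest possible p is 0.0286.

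Genes were named by rule: in each direction the 12 with the smallest p and the 8 with the largest fold among called genes with at least 10 CPM in all 4 libraries of the higher group and no overlap, up to 4 called members of each of 34 gene lists and up to 2 against the list's median, the study's RT-PCR genes, and Nr2f2, Ephb4, Efnb2, Ren1, Acta2 and Myh11. P2rx1, Htr1b, Glp1r, Cnn1, Tagln, Tpm1, Stmn2, Unc5b, Lrp2 and Slc4a4 were added after their values were seen, as were list members given only by fold change and FDR. The members and lists were chosen with earlier results of these data known. Some genes belong to several lists, among them Mgp, Ltbp4, Fbln5, Jag1, Hey2, Notch3, Rgs5, Gja4 and Vwf. The counts of such lists are therefore not separate evidence. A few results are not reported here.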

Additional observations from a re-analysis of the deposited data

Results flagged for a closer look

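In 31 of 284 groups of 4 libraries, 1 library stood apart from the other 3 by Dixon's criterion. Its rate of about 1 of 20 groups holds for normally distributed values. Most groups here are CPM of genes picked by their results, so the 31 cannot be measured against that rate. Arteriole 96 had the lowest TMM factor, 0.65, and the lowest median CPM over the genes tested, 13.6. A lower factor raises CPM, whereas shares of counts do not use the factor. The part of this factor in the values below was not tested. Arteriole 96 stood apart 10 times, on the high side in each: Crip1 at 5553 CPM, Map6 at 222, Mmrn2 at 1533, Mgp at 9622, Mef2c at 554, Hspg2 at 1300.1, Serpinf1 at 306, Ephb4 at 133 and Ren1 at 22.3 CPM, and platelet genes at 0.0146% of counts. Venule 96 was high for Acta2 at 469.5 CPM, Jph2 at 31.0, Ptgis at 26.7, Efnb2 at 22.2 and Cytl1 at 2.54 CPM, and low for Rbfa at 61.9 CPM. Arteriole 93 was high for Nos3 at 473 CPM, Nrxn2 at 1.15 and Hook2 at 0.959 CPM, and low for Rhpn1 at 0.575 CPM. Arteriole 100 was high for Kap at 11528 CPM, Slc5a10 at 31.3 and Kcnj1 at 4.36 CPM, and low for Kctd17 at 0.323 CPM. Arteriole 98 was low in the share of fibroblast genes, 0.492% of counts, and of nerve and Schwann cell genes, 0.00559%. Venule 98 had the lowest total, 4639090 counts, and was low for Nectin2 at 25.9 CPM. Venule 100 was high for mt-Nd1 at 28932 CPM and Slc4a4 at 2141 CPM, and venule 93 for Ltbp4 at 238 CPM.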

How the results depend on the processing

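The arteriole-higher count of 201 genes became 737 in the DESeq2 Wald test, 448 in the version 4 form of the quasi-likelihood test, 392 without a filter, 489 with an independent filter, 305 with 16 microdissected libraries and 648 with all 20, and ranged from 132 to 205 when 1 library was left out. The venule-higher count of 57 became 32 with DESeq2 size factors, 86 with plain totals, 1047 in the DESeq2 Wald test, 134 in the version 4 form, 197 with a minimum of 10 CPM, 104 with an independent filter, 228 with 16 libraries and 782 with all 20, and ranged from 13 to 60 when 1 library was left out. Of the 201 and 57 genes, 95 and 2 were called under all 20 alternatives. Libraries with the same column number did not deviate together (correlations of 0.003 to 0.031), which cannot show that pairs are absent. No label says that the number names the mouse, so the numbers were not taken as pairs although the vessel types share mice. A fit with the number as a replicate block called 267 and 118 genes, added the calls of Emcn, Igf1 and Efnb2 and ended those of Acsm5, Hook2 and Klf2, and changed no other call among the named genes. The sign turned for Ppia with voom quality weights (-1.28), the block (-0.47) and without arteriole 100 (-0.28, from there up to 0.88 when other libraries were left out), for Ehd3 with plain totals (-0.06), voom (-1.77), the block (-1.68) and without arteriole 93 (-0.99, up to 0.65), and for Ephb4 with voom (-0.79), the block (-1.57) and without arteriole 96 (-2.69, up to 1.83). The causes of these changes were not tested. Genes at 3 counts or fewer limit the precision of the largest folds.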
